A study of Rattus norvegicus with 18 samples.

Results

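Lysosomal hydrolases and membrane proteins were described as a list of 35 genes, chosen by symbol, of which 34 were found among the 18420 genes of the table (Sgsh is not analysed here). They were split by role into 9 cathepsins, 11 glycosidases and sulfatases, 9 membrane or lipid-transfer proteins and 5 others. RNA of kidney cortex came from Zucker diabetic fatty (ZDF) rats in 3 groups of 6 libraries: lean, non-diabetic healthy controls (ZDF fa/+), diabetic animals labelled as disease controls (ZDF fa/fa, called disease) and diabetic ZDF fa/fa animals that had undergone Roux-en-Y gastric bypass (RYGB), in which a small stomach pouch is joined to the jejunum so that food bypasses the rest of the stomach and the duodenum. The fa allele disrupts the leptin receptor, so fa/fa animals of both groups lack normal leptin signalling and the healthy controls carry 1 copy of the allele. The labels give no age or sex, name no sham operation or pair-fed group, and do not say that each library is a separate animal, so the spread behind each p-value is that between libraries and may be technical. Values are normalised reads, that is, reads counted in a gene divided by the library's size factor, and levels are not compared between genes because the table gives no gene lengths.

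Lysosomes are acidic organelles that break down proteins, glycans, sulfated polysaccharides and lipids delivered by endocytosis, phagocytosis and autophagy. Each soluble hydrolase acts on certain bonds, and membrane proteins protect the limiting membrane, pump protons and export the products. In the kidney, proximal tubule cells take up filtered protein and degrade it in a large lysosomal compartment, and macrophages are also rich in lysosomal enzymes. Transcription of many lysosomal genes is driven by Tfeb and its relatives, which enter the nucleus when nutrient signalling at the lysosome is low and bind E-boxes with the core CACGTG near the start of their targets.

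Promoter windows from 250 bases before to 50 bases after the start of transcription were matched by symbol in RefSeq (build GRCr8) for 28 of the 34 genes. The 6 letters CACGTG, which read the same on both strands, were in 7 of these 28 windows (25%), against 6.42% of all 33469 windows of that length in the table and 8.82% of the 10459 windows of tested genes. The longer form TCACGTG, searched on both strands and containing the same 6 letters, was also in 7 of the 28, against 3.2% of all windows and 5.12% of those of tested genes. By role these were 1 of 8 cathepsins, 3 of 8 glycosidases and sulfatases, 3 of 8 membrane or lipid-transfer proteins and 0 of 4 others. The match is a description of letters and shows no binding.

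The windows of the 3 genes that were called in a comparison are given first, 5′ to 3′ on the gene's own strand, with each CACGTG in capitals.
Ctsd (chr1:206968772-206969071, minus strand): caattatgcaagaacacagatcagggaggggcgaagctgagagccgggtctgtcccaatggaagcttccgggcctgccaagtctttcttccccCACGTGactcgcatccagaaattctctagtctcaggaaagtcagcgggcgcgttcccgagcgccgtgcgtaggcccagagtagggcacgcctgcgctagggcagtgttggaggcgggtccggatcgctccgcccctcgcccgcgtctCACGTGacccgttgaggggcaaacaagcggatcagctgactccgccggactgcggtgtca
Ctsz (chr3:183653798-183654097, minus strand): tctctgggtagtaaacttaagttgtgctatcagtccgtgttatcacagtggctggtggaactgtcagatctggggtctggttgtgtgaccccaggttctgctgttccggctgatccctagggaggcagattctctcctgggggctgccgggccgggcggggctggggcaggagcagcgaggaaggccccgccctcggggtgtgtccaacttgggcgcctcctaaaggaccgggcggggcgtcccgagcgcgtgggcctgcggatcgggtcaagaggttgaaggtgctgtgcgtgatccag
Ctsc (chr1:151440799-151441098, plus strand): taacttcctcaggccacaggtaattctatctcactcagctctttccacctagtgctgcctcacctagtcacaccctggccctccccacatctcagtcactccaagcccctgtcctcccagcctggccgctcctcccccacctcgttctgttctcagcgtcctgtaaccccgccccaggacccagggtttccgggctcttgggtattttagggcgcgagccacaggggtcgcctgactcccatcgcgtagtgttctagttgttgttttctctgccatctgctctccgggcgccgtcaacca
Ctsd holds the core at 2 places, 157 and 10 bases before the start, and the windows of Ctsz and Ctsc hold none.

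For the other 6 genes the copy nearest to the start is shown with 10 bases on either side, to let the flanks of the core be compared.
Lamp1 (chr16:83075086-83075111, minus strand): cggcactgttCACGTGacaggcgctg
Mcoln1 (chr12:6358252-6358277, plus strand): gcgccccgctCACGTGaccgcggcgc
Cln3 (chr1:190597952-190597977, minus strand): cgggtactgtCACGTGatccccaacc
Glb1 (chr8:122963608-122963633, plus strand): gctccggagtCACGTGgcctgcagag
Gaa (chr10:105028278-105028303, plus strand): gcccacaaacCACGTGacccacgctg
Idua (chr14:1190916-1190941, minus strand): ggcgaatggtCACGTGgggcgttacc
These lie at -38, 4, -38, -100, -67 and -3 bases from the start, where the start is 0. Lamp1 had 5 copies in its window, Mcoln1 and Cln3 had 2 each, and Glb1, Gaa and Idua had 1 each.

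The libraries held 8116638 to 42713246 reads in genes. Proximal tubule markers, which define kidney cortex, were abundant in every library: 10 of the 11 listed were in the table, with summed levels of 136933 to 285709 normalised reads in healthy control, 140488 to 298769 in disease and 252732 to 377992 in RYGB. Healthy control replicate 1 had the lowest proximal tubule sum and the highest share of reads outside genes (43.17%, range of all libraries 27.62 to 43.17%). Reads of the 34 lysosomal genes made up 1.45 to 2.13% of reads in genes in healthy control (median 2%), 1.63 to 2.32% in disease (median 1.87%) and 1.39 to 1.71% in RYGB (median 1.57%). The cathepsins' share was 0.89 to 1.44%, 0.968 to 1.57% and 0.75 to 1.02% in the same order. The lowest RYGB libraries lay below both other groups' ranges, and the highest lay within them. In whole tissue, fewer cells of a type and less RNA per cell cannot be told apart.

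The comparison of disease with healthy control addressed which transcripts accompany diabetic kidney disease. Only cathepsins were called: Ctsz and Ctsd rose in the diabetic cortex, and none of the 34 genes fell. A gene was called at a limma adjusted p below 0.05 over all 13988 tested genes. All 34 passed the filter on low values, and 2 of them (5.88%) were called, where 1.61% of all tested genes were called (0.579% higher and 1.03% lower). The median log2 fold change of the 34 was 0.04, against 0.002 over all tested genes, and 28 of the 34 lay within 0.2 of zero.

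Ctsz encodes a lysosomal carboxypeptidase. In replicates 1 to 6 of healthy control it had 357.1, 340.8, 310.2, 284.6, 330.3 and 314.6 normalised reads, and in those of disease 453.4, 566.4, 504.2, 458.2, 531.8 and 383.6. All 6 disease libraries lay above all 6 healthy control libraries, which among the 34 genes held for Ctsz alone (1.24% of all tested genes did not overlap, 0.458% being higher and 0.786% lower). Its mean rose from 322.9 ± 25.5 to 482.9 ± 65 (SD, n = 6), a log2 fold change of 0.57 ± 0.12 (SE, adjusted p = 0.0119).

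Ctsd is the main aspartic protease of lysosomes. In replicates 1 to 6 it had 11183, 15201, 13329, 10735, 15622 and 13685 normalised reads in healthy control and 18726, 21132, 19325, 16936, 21506 and 15036 in disease. The groups overlapped narrowly, with the lowest disease library (replicate 6) below the highest healthy control libraries. The mean went from 13290 ± 2010 to 18780 ± 2480 (SD, n = 6; log2 fold change 0.50 ± 0.12, adjusted p = 0.0449). With the replicate number as a block the adjusted p of Ctsd was 0.0549, or 0.0677 within these 2 groups alone, so 1 gene rather than 2 was then called. No filter (0.058), a minimum of 50 (0.0513), quantile normalization (0.175) and the 2 groups fitted alone (0.116) also ended it. The call was also lost without any 1 of 15 libraries (adjusted p 0.0527 to 0.109) and kept without healthy control replicate 5, disease replicate 6 or RYGB replicate 2.

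The other 7 cathepsins were not called. Ctsc, a dipeptidyl peptidase that activates the serine proteases of immune cell granules, was 7364 ± 586 in healthy control and 8625 ± 586 in disease (0.23 ± 0.09, adjusted p = 0.338). Ctss, which processes the invariant chain of MHC class II in antigen-presenting cells, was 689.7 ± 96.8 and 843 ± 109 (0.29 ± 0.13, adjusted p = 0.424). The papain-like proteases Ctsb, Ctsh and Ctsl and the collagen-degrading Ctsk had log2 fold changes of 0.04, -0.16, -0.16 and -0.05. Ctsa, a carboxypeptidase that also holds Glb1 and Neu1 in a complex, had 0.13 with a 95% interval of -0.36 to 0.62. The intervals of Ctsb (-0.49 to 0.57) and Ctsh (-0.68 to 0.37) were as wide, so changes within them were not excluded with 6 libraries a group.

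**Figure D1:**
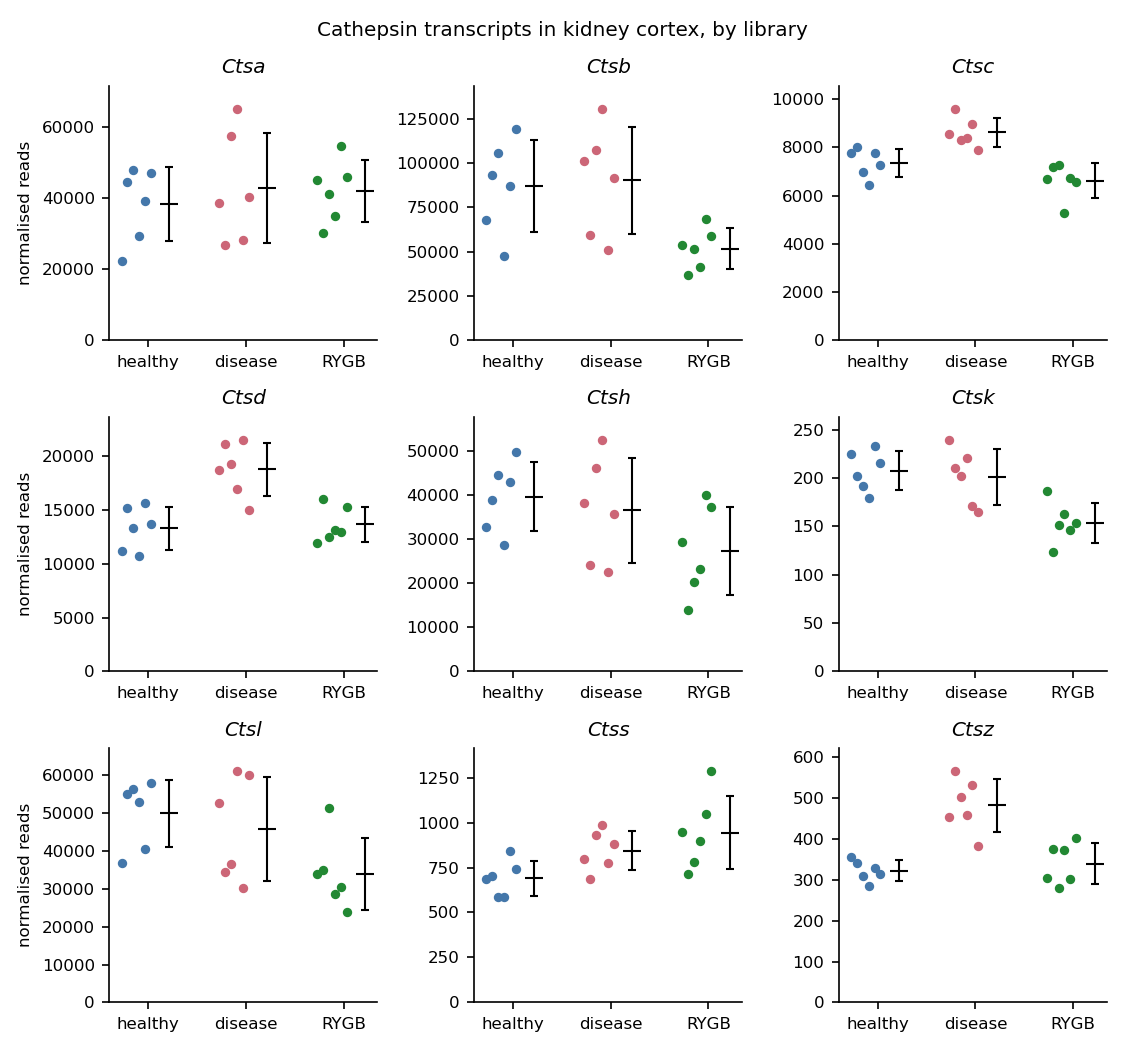
Normalised reads (vertical axes, linear from 0) of the 9 cathepsins; each point is 1 of the 6 libraries of a group with the group's mean ± SD drawn as a bar. Ctsz and Ctsd are higher in disease than in healthy control and lower again in RYGB, while Ctsb, Ctsh and Ctsl have their lowest means in RYGB and spread widely within groups.

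None of the 11 glycosidases and sulfatases was called by limma in disease against healthy control, 0 had an unadjusted p below 0.05 (11.1% of all tested genes did), and edgeR and DESeq2 called 0. Their median log2 fold change was 0.07, with 9 positive and 2 negative. Ids, which removes sulfate from dermatan and heparan sulfate, was the lowest at -0.45 ± 0.24 (adjusted p = 0.513), from 391.7 ± 111 to 298.2 ± 124 normalised reads. Gaa, the lysosomal glycogen-degrading glucosidase, was the highest at 0.16 ± 0.17. Gla, the galactosidase of globotriaosylceramide, had the narrowest interval of these enzymes (0.03, -0.14 to 0.21).

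The 9 membrane or lipid-transfer proteins had a median log2 fold change of -0.05 and 0 calls by limma, edgeR or DESeq2, and 1 had an unadjusted p below 0.05. That 1 was Npc2, the soluble protein that hands cholesterol to Npc1 for export, at 2731 ± 303 in healthy control and 3315 ± 424 in disease (0.28 ± 0.10, adjusted p = 0.269). Npc1 itself was at -0.07 ± 0.11. Lamp1 and Lamp2, the abundant glycoproteins that line the inner face of the lysosomal membrane, were at -0.01 (-0.33 to 0.32) and -0.09 (-0.36 to 0.19). Among the 5 other members limma, edgeR and DESeq2 called 0 and 0 had an unadjusted p below 0.05, with log2 fold changes from -0.16 (Lipa) to 0.20 (Tfeb).

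**Figure D2:**
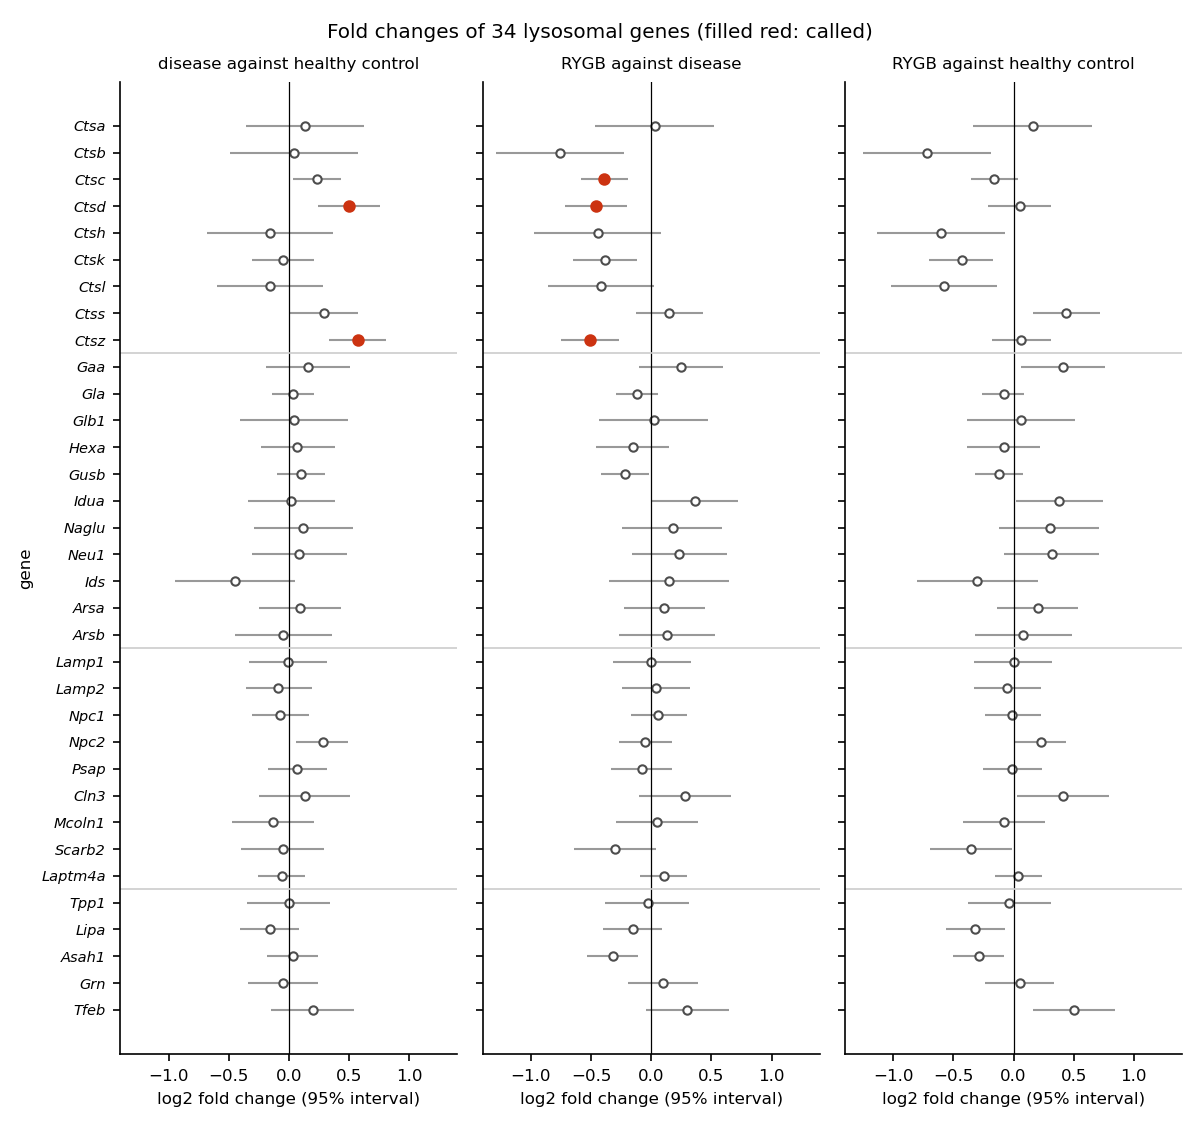
Log2 fold changes (horizontal axes, on the log2(value + 1) scale) of the 34 genes in the 3 comparisons, with 95% intervals not adjusted for multiple tests; grey lines part cathepsins, glycosidases and sulfatases, membrane or lipid-transfer proteins, and others. Filled points are called genes: Ctsd and Ctsz in the left panel, Ctsc, Ctsd and Ctsz in the middle panel, and none in the right panel.

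The comparison of RYGB with disease addressed how the operated diabetic cortex differed from the unoperated one. Ctsc, Ctsd and Ctsz fell and no member rose, which is 3 of 34 (8.82%) against 3.95% of all tested genes called, 1.84% higher and 2.1% lower. The median log2 fold change was 0.01 over the 34 and -0.42 over the cathepsins, 7 of which were negative. This comparison shares its disease libraries with the preceding one, so a gene that is high in those libraries differs in both.

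In replicates 1 to 6 Ctsc had 8576, 9589, 8323, 8377, 8975 and 7911 normalised reads in disease and 6678, 7196, 7289, 5272, 6742 and 6552 in RYGB. The healthy control libraries had 7750, 8002, 6965, 6444, 7750 and 7272. Every RYGB library lay below every disease library, which among the 34 held for Ctsc alone (2.6% of all tested genes did not overlap, 1.12% being higher and 1.47% lower). The mean fell from 8625 ± 586 to 6622 ± 724 (SD, n = 6; -0.39 ± 0.09, adjusted p = 0.0267). Leaving out 1 of 5 libraries (replicates 1 and 2 of disease, and 1, 4 and 6 of RYGB) ended the call, at an adjusted p of 0.0526 to 0.0701. So did fitting the 2 groups alone (0.0578), with the replicate block too (0.225). Replicate numbers did not pair RYGB with disease libraries (correlations -0.56 to 0.31). The blocked values of Ctsc, and of Ctsz and Ctsd below, therefore rest on a pairing that these libraries do not show.

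Ctsz fell from 482.9 ± 65 to 339.7 ± 49.7 (-0.51 ± 0.12, adjusted p = 0.0183). Its RYGB libraries had 304.2, 375.3, 280.9, 372.5, 303.1 and 402.4 in replicates 1 to 6, of which 1 (replicate 6) reached the disease range. Without disease replicate 2 or RYGB replicate 1 its adjusted p was 0.0503 to 0.0535, and with the replicate block within the 2 groups it was 0.197. Ctsd fell from 18780 ± 2480 to 13660 ± 1610 (-0.46 ± 0.12, adjusted p = 0.0438), with 11976, 16011, 12536, 13168, 12998 and 15282 in RYGB replicates 1 to 6. Leaving out 1 of 12 libraries ended the Ctsd call (adjusted p 0.0515 to 0.109): replicates 2, 3 and 6 of healthy control, 1, 2, 3 and 5 of disease, and 1, 3, 4, 5 and 6 of RYGB. It was also lost with no filter (0.0602), after quantile normalization (0.0783), in a fit of the 2 groups by themselves (0.0653) and in that fit with a block on replicate number (0.24). The count of 3 went to 0 without disease replicate 2 or RYGB replicate 1, and to 1 without disease replicate 1 or RYGB replicates 4 or 6.

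Ctsb, a protease with both endopeptidase and peptidyl-dipeptidase activity, showed the largest difference of the 34 genes. It had 51256, 96559 and 130430 normalised reads in the lowest, median and highest disease library and 36611, 52605 and 68260 in RYGB. Although the RYGB median was close to the lowest disease libraries, 2 disease libraries (replicates 2 and 5) lay inside the RYGB range, and Ctsb was not called (-0.76 ± 0.25, adjusted p = 0.096). It was called without disease replicate 5 (adjusted p = 0.036), after quantile normalization (0.00352) and by DESeq2 (0.0147). Ctsk (201.4 ± 28.8 to 153.9 ± 20.6; -0.38 ± 0.13, adjusted p = 0.0885) was called by DESeq2 (0.0265) but not by limma. Ctsh (-0.44 ± 0.25, adjusted p = 0.323) and Ctsl (-0.42 ± 0.21, adjusted p = 0.26) were not called. Ctss (0.15 ± 0.13) and Ctsa (0.03 ± 0.24) were the cathepsins with positive values.

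Of the 11 glycosidases and sulfatases 0 were called in RYGB against disease by limma, edgeR or DESeq2, and 2 had an unadjusted p below 0.05, as did 20.7% of all tested genes. These 2 pointed in opposite directions: Gusb, the beta-glucuronidase, went from 643.8 ± 62.4 to 553 ± 43 (-0.22 ± 0.10, adjusted p = 0.204), and Idua, which removes iduronic acid from dermatan and heparan sulfate, from 891.1 ± 257 to 1117 ± 180 (0.36 ± 0.17, adjusted p = 0.241). The group's median was 0.13. The sialidase Neu1 (0.23 ± 0.19), Naglu (0.18 ± 0.20), the sulfatases Arsa (0.11 ± 0.16) and Arsb (0.13 ± 0.19), the beta-galactosidase Glb1 (0.02 ± 0.22) and the hexosaminidase subunit Hexa (-0.15 ± 0.15) all had intervals that included zero.

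Membrane or lipid-transfer proteins again gave 0 calls by the 3 tools, 0 unadjusted p below 0.05 and a median of 0.04. Scarb2, the receptor that carries glucocerebrosidase to lysosomes, was lowest at -0.30 ± 0.16 (adjusted p = 0.303). Cln3, a membrane protein whose loss causes a juvenile neuronal storage disease, was highest at 0.28 ± 0.18. The calcium channel Mcoln1 (0.05), Psap, the precursor of the saposins that present lipids to hydrolases (-0.08), Laptm4a (0.11), Lamp1 (0.00) and Lamp2 (0.04) were nearer to zero.

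Among the 5 other members limma called 0. Asah1, the acid ceramidase, went from 2651 ± 329 to 2122 ± 234 (-0.32 ± 0.10, adjusted p = 0.0842), had the only unadjusted p below 0.05 of the 5, and was called by DESeq2 (0.0353), without disease replicate 3 (0.0426) and without RYGB replicate 3 (0.0473). edgeR called 0 of the 5. Lipa, the acid lipase of cholesteryl esters and triglycerides, was at -0.15 ± 0.12. The peptidase Tpp1 (-0.03 ± 0.17), the lysosomal growth factor progranulin Grn (0.10 ± 0.14) and the transcription factor Tfeb (0.30 ± 0.16, adjusted p = 0.297) were not called either.

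The comparison of RYGB with healthy control asked what distance remained from lean cortex. For Ctsd and Ctsz the interval of that difference was -0.21 to 0.31 and -0.18 to 0.31 on the log2 scale. Limma called 0 of the 34, where 4.44% of all tested genes were called (2.46% higher and 1.98% lower), 13 had an unadjusted p below 0.05 (26.2% of all tested genes did), edgeR called 2 and DESeq2 called 5. In 0 of the 34 genes did the 2 groups' libraries not overlap, against 3.22% of all tested genes (1.82% higher and 1.4% lower). The count was 3 without healthy control replicate 4, 5 without RYGB replicate 3, and 1 without disease replicates 1, 5 or 6 or RYGB replicate 2.

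Several cathepsins were lower after bypass than in lean cortex without reaching the threshold with limma. Ctsk had 179.1, 208.9 and 232.8 normalised reads in the lowest, median and highest healthy control library and 123.1, 152.6 and 186.3 in RYGB, with the groups overlapping in a narrow band (-0.43 ± 0.13, adjusted p = 0.0512). It was called by edgeR (0.0493), by DESeq2 (0.00732) and with the 2 groups fitted alone (0.0389). Ctsb went from 86930 ± 25900 to 51730 ± 11500 (-0.72 ± 0.25, adjusted p = 0.0936) and was called by DESeq2 (0.0218) and after quantile normalization (0.0347). Ctsl went from 49970 ± 8940 to 33910 ± 9460 (-0.58 ± 0.21, adjusted p = 0.1) and Ctsh from 39620 ± 7840 to 27350 ± 10100 (-0.60 ± 0.25, adjusted p = 0.144), with Ctsh called after quantile normalization (0.0488). Ctsb (0.0266), Ctsk (0.0236) and Asah1 (0.0357) were the genes called without healthy control replicate 4.

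Ctss pointed the other way, from 689.7 ± 96.8 in healthy control to 944.4 ± 205 in RYGB (0.44 ± 0.13, adjusted p = 0.0631; edgeR 0.0484, DESeq2 0.0204). Its RYGB libraries ran from 713 to 1286 and its healthy control libraries from 585.7 to 839.7. Tfeb had 452.4, 686.4 and 790.1 in the lowest, median and highest healthy control library and 671, 1003 and 1049 in RYGB (0.50 ± 0.16, adjusted p = 0.0772; DESeq2 0.036, 2 groups fitted alone 0.0413). All RYGB libraries but replicate 3 lay above every healthy control library, and without that replicate Tfeb was called (0.0319), as were Ctsk (0.0466), Ctsl (0.0377), Ctss (0.037) and Asah1 (0.0483). The 11 glycosidases and sulfatases had a median of 0.08 in this comparison and 0 calls by limma, edgeR or DESeq2, with 2 unadjusted p below 0.05; their values ran from -0.30 (Ids) to 0.41 (Gaa, adjusted p = 0.135). The 9 membrane or lipid-transfer proteins had a median of -0.01 and 0 calls by the same tools, with 3 unadjusted p below 0.05, and ran from -0.35 (Scarb2, adjusted p = 0.182) to 0.41 (Cln3, adjusted p = 0.161).

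For the 7 genes whose promoter window held CACGTG, values are given side by side, the comparisons sharing libraries. The log2 fold changes of Ctsd, Gaa, Glb1, Idua, Cln3 and Mcoln1 were 0.50, 0.16, 0.04, 0.02, 0.13 and -0.13 in disease against healthy control. In RYGB against disease they were -0.46, 0.25, 0.02, 0.36, 0.28 and 0.05. In RYGB against healthy control they were 0.05, 0.41, 0.06, 0.38, 0.41 and -0.08. Lamp1, with the most copies, had 95% intervals of -0.33 to 0.32, -0.32 to 0.33 and -0.33 to 0.32 in these comparisons. Of the 7, limma called Ctsd in the first and second comparison and 0 in the third.

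The libraries of 1 group differed widely in many of these genes, and often together. In disease, replicates 3 and 4 were the 2 highest libraries in 15 of the 34 genes and replicates 2 and 5 the 2 lowest in 11, a pattern picked after the values were seen. Both held in 9: Ctsa, Ctsb, Ctsh, Ctss, Glb1, Hexa, Neu1, Arsb and Lamp1. In healthy control, replicates 1 and 4 were the 2 lowest libraries in 18 genes. Ctsa, for example, had 57661 and 65164 normalised reads in disease replicates 3 and 4 and 26987 and 28329 in replicates 2 and 5. Ids went the opposite way, with 189 and 170 in disease replicates 3 and 4 and 419.4 and 456.3 in replicates 2 and 5.

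In disease, sums of tubule markers differed between the same libraries. The summed proximal tubule markers were 281348 and 298769 in disease replicates 3 and 4 and 140488 and 147912 in replicates 2 and 5. The summed distal tubule and collecting duct markers (6 of 8 in the table) ran the other way, with 82582 and 63818 in replicates 3 and 4 and 126146 and 145735 in replicates 2 and 5. In healthy control the proximal tubule sum was low in replicate 1 (136933) but not in replicate 4 (238053), where replicates 2, 3, 5 and 6 had 247823, 285709, 235726 and 261955. Disease replicates 3 and 4 also had more reads in genes (37142922 and 30507408) than replicates 2 and 5 (18234997 and 11004307). Their part in the spread was not tested.

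**Figure D3:**
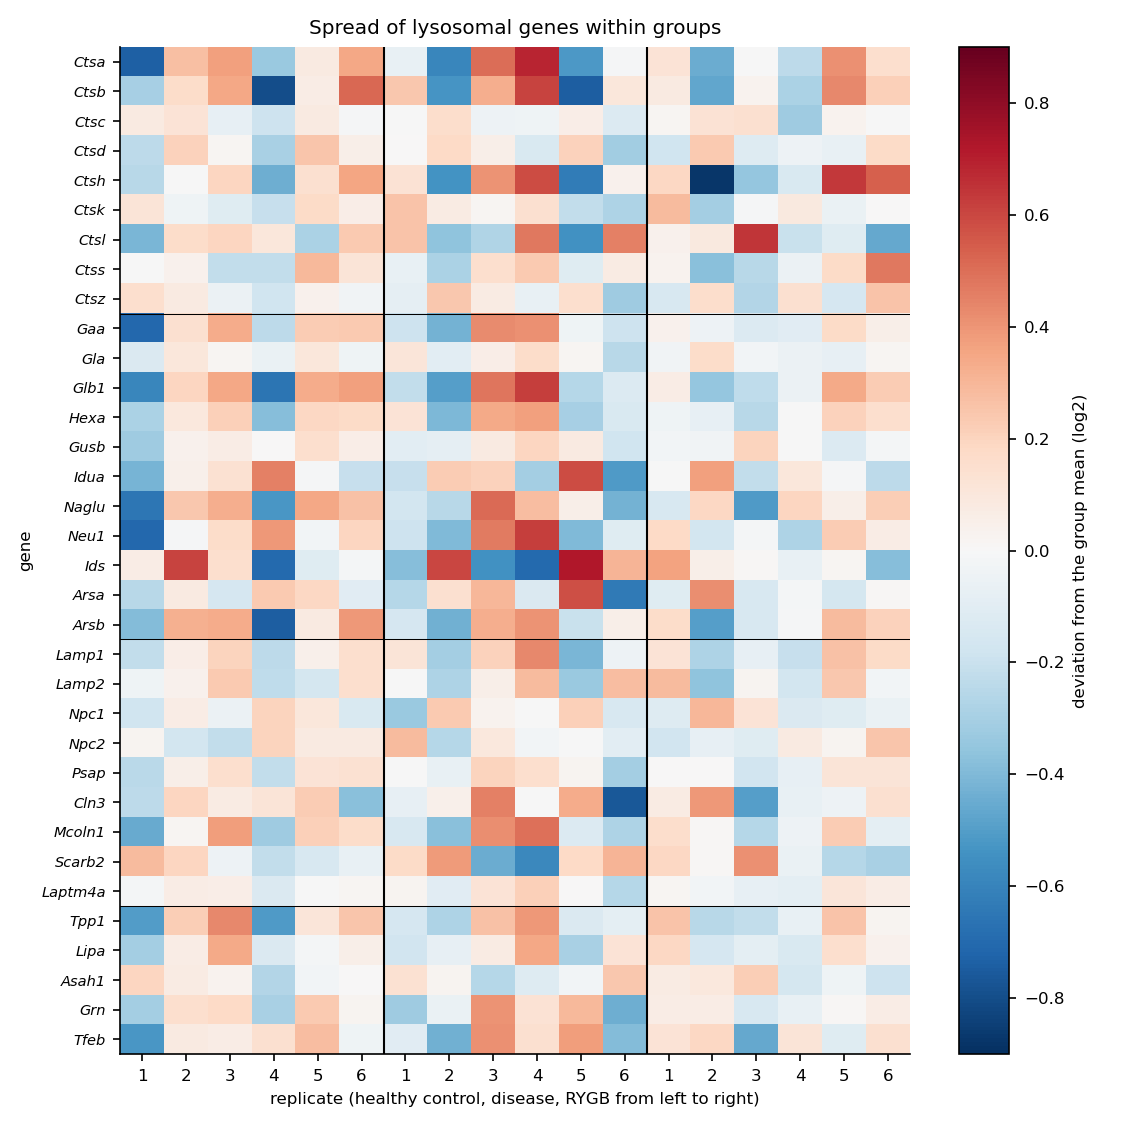
Deviation of each library from its group's mean (log2, colour scale) for the 34 genes (rows, in the order of the role groups) in the 6 libraries of healthy control, disease and RYGB (columns). Rows such as Ctsa, Ctsb, Ctsh and Glb1 are red in disease replicates 3 and 4 and blue in replicates 2 and 5, while Ids and Scarb2 are blue in replicates 3 and 4, and rows such as Gla and Laptm4a vary little.

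Other genes of the pathway were taken from fixed lists, of which 82 of 96 were tested. Of these 1 rose in disease against healthy control (1.22% called), 2 fell in RYGB against disease (2.44%) and 2 fell in RYGB against healthy control (2.44%), each under the share of all tested genes. Of 21 further hydrolases and cofactors 0, 0 and 1 were called in the 3 comparisons, of 13 proton pump subunits 0, 1 and 0, and of 8 sorting genes 0, 0 and 1. Regulators of lysosomal transcription (11 tested), autophagy genes (12) and cystatins (4), the inhibitors of papain-like cathepsins, gave 0 calls by limma in each. The cystatins had median log2 fold changes of 0.40, -0.30 and 0.07.

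Of 13 further membrane proteins 1 was called, Gpnmb, a glycoprotein of lysosome-related organelles that phagocytes make in quantity. Gpnmb had 68.09 to 134.9 normalised reads in healthy control, 189.4 to 504.1 in disease and 76.65 to 158.7 in RYGB, so the disease libraries stood above both other groups without overlap. It rose by 1.49 ± 0.22 (adjusted p = 0.000913) and fell by 1.51 ± 0.22 after RYGB (adjusted p = 0.000779).

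The proton pump subunit Atp6v1h fell from 3186 ± 315 in disease to 2605 ± 95.4 in RYGB (-0.28 ± 0.08, adjusted p = 0.049), a call kept under 10 of 29 alternatives. It was lost with edgeR (0.0591), no filter (0.0579), TMM scaling (0.0578) and the 2 groups fitted alone (0.102). The replicate block (0.0903) and that block within the 2 groups (0.342) ended it too. The call was also lost without any 1 of 13 libraries (0.0571 to 0.12). It was kept when 1 of these was left out: replicates 1 and 4 of healthy control, 3 and 5 of disease, 3 of RYGB. Sumf1, which activates all sulfatases, fell from 1814 ± 93 in healthy control to 1407 ± 37.1 in RYGB (-0.36 ± 0.09, adjusted p = 0.0234), and the cation-independent mannose 6-phosphate receptor Igf2r, which sorts new hydrolases to lysosomes, from 11220 ± 2420 to 6653 ± 1700 (-0.76 ± 0.20, adjusted p = 0.0351). Sumf1 was not called without any 1 of 7 libraries (healthy control replicates 1, 5 or 6 or RYGB replicates 1, 4, 5 or 6, 0.0504 to 0.0636) and Igf2r without any 1 of 9 (healthy control replicates 1, 2, 3, 5 or 6 or RYGB replicates 2, 4, 5 or 6, 0.0501 to 0.0878).

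Markers of other cells were set beside the cathepsins. Of 16 macrophage markers 15 were in the table and 14 tested. In disease against healthy control 2 were called higher (1.61% of all tested genes were called), and in RYGB against disease 2 were called lower (3.95%). In RYGB against healthy control 1 was called higher and 1 lower (4.44%). The markers did not all move alike. In healthy control, disease and RYGB, Lyz2 had means of 4449, 6747 and 6555, Clec10a 71.48, 185.9 and 59.22, and Mrc1 132.9, 220.6 and 60.34. The macrophage markers' summed level was 6140 to 8513 in healthy control, 9473 to 12014 in disease and 8286 to 11439 in RYGB, with Marco under 10 in every library. Lyz2 made up 58.4, 63.2 and 67.2% of the sum. Without it the 3 ranges were 2411 to 3555, 3545 to 4377 and 2718 to 3612. With Lyz2 the RYGB range overlapped that of disease and only just that of healthy control, and without it the RYGB median (3162) was near that of healthy control (3314) and below that of disease (3859). Lymphocyte markers (6 in the table) summed to 321.4 to 605.2 in healthy control, 534.6 to 733.9 in disease and 384.3 to 471.9 in RYGB, so that RYGB and disease did not overlap, as for Ctsc. Injured tubule markers (7 in the table) summed to 9231 to 13727 in healthy control, 19608 to 45946 in disease and 10172 to 12666 in RYGB. Spp1 alone held a large part of this sum, with 2812 to 5186, 9794 to 30780 and 3885 to 6410 in the same order. Lcn2 was under 10 in every RYGB library. Of the 6 tested, 5 had a positive and 1 a negative log2 fold change in disease against healthy control. In that comparison 4 were called higher (1.61% of all tested genes were called). In RYGB against disease all 6 were negative and 4 were called lower (3.95%), and in RYGB against healthy control 0 were called (4.44%). The part of these marker groups in the results on Ctsz, Ctsd and Ctsc was not tested. Fibroblast markers (6 of 6 in the table) summed to 4398 to 9587 in healthy control, 7399 to 10124 in disease and 3529 to 6129 in RYGB. The 4398 was healthy control replicate 4 alone, and the other healthy control libraries had 8788 to 9587. Of the 6 markers 0 were called in disease against healthy control, 3 lower in RYGB against disease and 2 lower in RYGB against healthy control. Ctsk too had its lowest values in RYGB. The part of the fibroblast markers in the result on Ctsk was not tested.

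**Figure D4:**
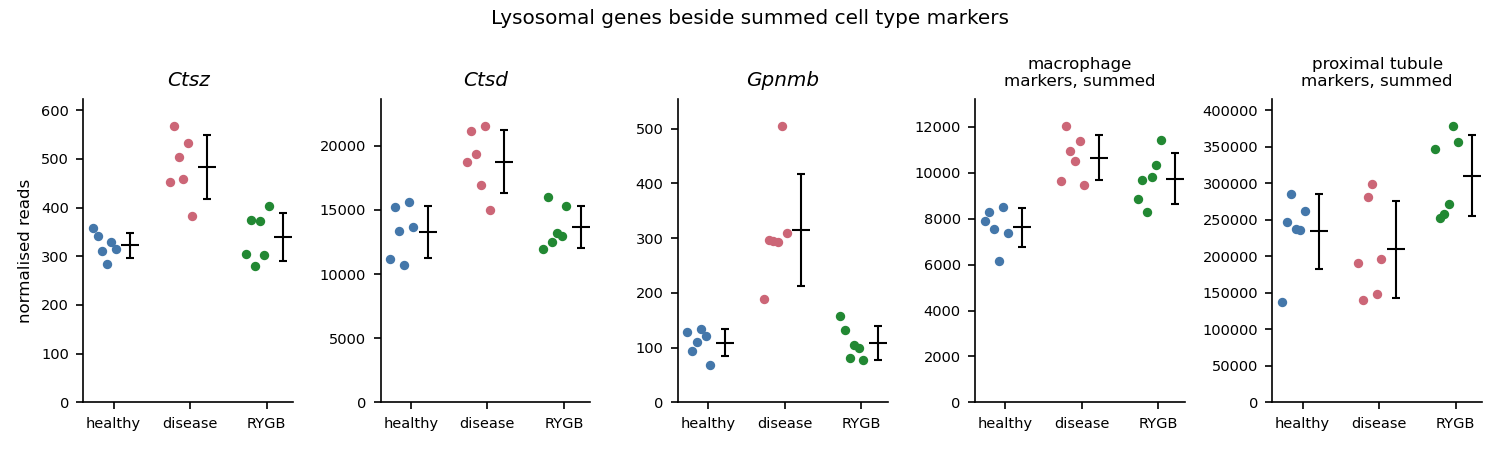
Normalised reads (vertical axes, linear from 0) of Ctsz, Ctsd and Gpnmb, and the summed normalised reads of 15 macrophage and 10 proximal tubule markers; points are libraries and bars the mean ± SD of 6. Ctsz, Ctsd and Gpnmb are highest in disease, the macrophage sum is lowest in healthy control and the proximal tubule sum is highest in RYGB.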

How the data were processed

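RNA-seq of kidney cortex was used in 18 libraries, 3 groups of 6, grouped by the sample titles. Per the labels' protocols, libraries came from a stranded kit for messenger RNA. The table deposited by the authors holds a normalised signal: gene-level reads scaled by a size factor, as its whole-read steps show. HTSeq 0.6.1p1, DESeq2, FastQC 0.11.2, MultiQC 0.9 and the build Rnor 5.0 are named per the submitters' processing notes. The aligner, the annotation and the strand setting were not given in the sources used here, so reads of overlapping genes may be shared. Whole reads were recovered for at least 99.99% of each library's non-zero values (within 0.01 reads). The 3 rows that name no gene, with 27.62 to 43.17%, 13.46 to 18.13% and 0.069 to 0.114% of reads, were left out. No pair of libraries within a group agreed within sampling noise (chi-square per degree of freedom at least 22.51).

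The 13988 genes that reached 10 in 6 or more libraries were fitted with limma 3.58.1 (R 4.3.3) on log2(value + 1), with a mean-variance trend, 3 group means and 15 residual degrees of freedom. Tests were two-sided and Benjamini-Hochberg adjusted per comparison. Fold changes on this scale understate changes of low genes. edgeR 4.0.16 and DESeq2 1.42.0 on recovered counts, other filters, pseudocounts, scalings, fits and left-out libraries were alternatives. Same-numbered libraries of healthy control and disease deviated together weakly (correlations 0.13 to 0.32 in 6 of 6 pairs). Only 5 of these 12 libraries were closest to their own number. The block on replicate number is given there as an alternative. Tested on simulated data for disease against healthy control (13988 genes), the fit found 45.16, 72.86 and 100% of genes changed 1.5-, 2- and 4-fold, and 4.545% of its calls were false. Genes were simulated independently of each other, without the joint differences between libraries described above. The share of false calls in data with such differences was not measured.

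Every member was named, called ones with each library's value. Of other pathway lists up to 3 called genes per comparison were named. Members and lists were chosen with earlier results of these data known.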

Additional observations from a re-analysis of the deposited data

Results flagged for a closer look

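In a search of 38 genes in 3 groups of 6 (114 groups), 4 libraries lay far from the rest of their group, where chance gives about 1 in 20 groups. Ctsc had 5272 normalised reads in RYGB replicate 4, the others 6552 to 7289. Gusb had 479.8 in healthy control replicate 1, the others 601 to 665.7. Gusb also had 634.9 in RYGB replicate 3, the others 506.4 to 549.3. Arsa had 3040 in RYGB replicate 2, the others 2045 to 2294.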

How the results depend on the processing

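The count of called members in disease against healthy control went from 2 to 1 with no filter, a minimum of 50, quantile normalization, the 2 groups fitted alone, the replicate block and the replicate block within the 2 groups, and was 1 to 2 without single libraries. In RYGB against disease the count of 3 was 6 with DESeq2, 1 with the 2 groups alone, 0 with the replicate block within the 2 groups, and 0 to 3 without single libraries. In RYGB against healthy control the count of 0 was 2 with quantile normalization, 2 with edgeR, 5 with DESeq2, 2 with the 2 groups alone, and 0 to 5 without single libraries. Numbers did not pair RYGB libraries with disease (correlations -0.56 to 0.31, 1 of 12 libraries closest to its own number) or healthy control (-0.31 to 0.01, 0 of 12). Ctsz kept its call in disease against healthy control under 29 of 29 alternatives, Ctsd under 8; in RYGB against disease Ctsz kept it under 26, Ctsc under 22 and Ctsd under 13. No called value changed direction; 138 of 2958 recomputed values changed sign, and these were at most 0.129 in size. Counts over all genes moved by over 1.5 times: 225 became 143 with a minimum of 50, 410 with DESeq2 and 126 to 312 without single libraries; 552 became 1098 with DESeq2, 136 with the block within 2 groups and 261 to 819 without single libraries; 621 became 1602 with DESeq2, 1442 with the 2 groups alone and 209 to 1506 without single libraries.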
